A study of Mus musculus with 9 samples.

Results

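Macrophages sorted from the mouse epididymis were compared with macrophages sorted from both other organs of the series, the testis and the brain. The epididymis was represented by 3 of the 9 libraries, chosen by their labels alone, and set against the 6 libraries of testis and brain. All cells came from C57BL/6J mice, were not cultured and received no treatment, and no genotype beyond the strain, no age and no time point was given. The brain libraries are titled microglia. Per the labels' protocols, collagenase and DNase were applied to each organ for 40 min, 40% Percoll enriched the cells, and the sort kept live cells positive for CD45, for CD11b and for F4/80 and negative for Ly6C and for CD11c. The same protocols give 10 ng of RNA per library. The protocol also mentions a pooled tube for suspensions of testes and epididymides without saying whether the organs were mixed, and the organ labels were taken as they stand. The labels give 1 mouse number to all 3 libraries of an organ and another number to each other organ, so organ and mouse number cannot be told apart. What the p-values below measure is the spread of these libraries, and part or all of it may be technical.

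The epididymis is the coiled duct in which sperm leaving the testis mature and are stored, and its epithelium secretes a fluid rich in beta-defensins, lipocalins and other proteins that coat sperm. Macrophages lie around and within this epithelium, and are thought to clear defective sperm and cell debris and to balance tolerance of sperm antigens against defence from ascending infection. Uptake of dying cells loads a macrophage with cholesterol, which is broken out of membranes in the lysosome and exported with apolipoproteins.

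Values are normalised reads per gene as the authors deposited them, that is, reads divided by 1 factor per library. They are not divided by gene length, so levels are compared between libraries for 1 gene and not between genes. The epididymis libraries held 3482167, 3326780 and 2966349 reads assigned to genes, within the 2727092 to 4458688 of the series. On the third principal component (14.2% of the variance), epididymis replicate 3 lay at 97.16 and testis replicate 1 at 99.13, away from their fellow replicates. Ptprc, which encodes CD45, was at 2727, 2575 and 3529 in epididymis, 3004, 3152 and 2259.5 in testis and 1657, 1849 and 1359.9 in brain. Itgam, which encodes CD11b, was at 1134, 901 and 1247 in epididymis, 451, 348 and 283 in testis and 2094, 2451 and 2047 in brain. Ly6c2, 1 of a pair of near-identical genes of the Ly6C antigen that the gate leaves out, was at 0, 0.938 and 32.3 in epididymis, 101, 63 and 80.4 in testis and 8.2, 46.8 and 6.22 in brain. Itgax, which encodes CD11c, goes against the gate, which leaves CD11c out. Itgax was at 265, 209 and 294 in epididymis, 0, 0 and 21.4 in testis and 0 in all 3 brain libraries. All 9 defining macrophage markers (Ptprc, Itgam, Adgre1, Csf1r, Fcgr1, Mertk, Cd68, Aif1 and Spi1) had reads in each epididymis library.

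The test took in the 11766 genes that reached 10 normalised reads in 3 or more libraries. Of these, 10 were called higher in epididymis than in both other organs (0.085% of those tested) and 6 were called lower (0.051%). The called higher genes were Apoe, Ms4a7, Tor3a, Trpm2, Gpr65, Cxcl10, Il4ra, Defb20, Defb25 and Fyb, and the called lower genes were Sparc, Adamts1, Egr1, Jun, Tuba1a and Jund. A gene was called when all 3 epididymis values lay beyond all 6 others and its joint p passed 0.05 after Benjamini-Hochberg adjustment over all tested genes. The joint p is the larger of the p-values of epididymis minus testis and epididymis minus brain, both from limma on log2(value + 1), and it is set to 1 where these differences have opposite signs. At an unadjusted joint p below 0.05 there were 164 higher and 233 lower genes. Taking each comparison alone, adjusted over all genes, 223 genes were higher (1.9%) and 293 lower (2.49%) in epididymis than in testis, and 352 were higher (2.99%) and 212 lower (1.8%) than in brain. These comparisons share the epididymis libraries. The call with both separate adjusted p-values below 0.05, a setting chosen after seeing the data, took in 40 higher and 21 lower genes. Fewer calls were made without any 1 epididymis library, when 2 genes, Apoe and Ms4a7, were called higher and 3 or 4 were called lower. The median tested gene differed by -0.10 on the log2 scale from testis and -0.13 from brain, and by 0.05 and -0.18 with the libraries rescaled to the same total.

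**Figure D1:**
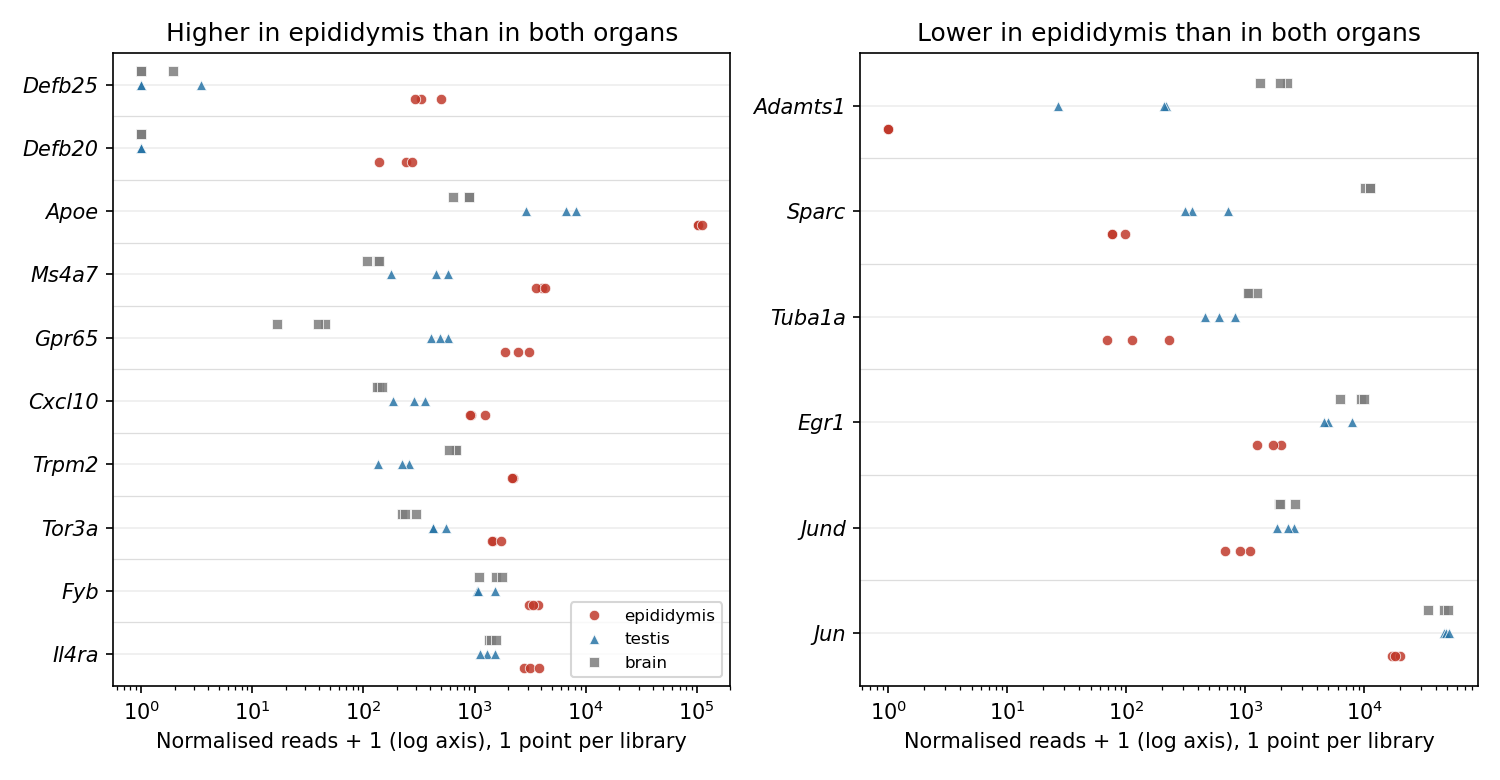
Normalised reads + 1 (horizontal log axis) of the 10 genes called higher (left) and the 6 called lower (right) in epididymis, 1 point per library, with red circles for epididymis, blue triangles for testis and grey squares for brain. In each row the 3 epididymis points lie beyond the 6 others, from 0 for Adamts1 to 112096 for Apoe.

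All 3 epididymis values lay above all 6 others for 321 tested genes (2.73%) and below them for 253 (2.15%). In the first set, the smaller of the differences from testis and brain had a median of 1.14 on the log2 scale, 179 genes exceeded both organs by at least 1, and 77 by at least 2. In the second set that median was -1.66, 180 genes lay below both organs by at least 1, and 117 by at least 2. Without a read in the other 6 libraries were 6 genes of the first set, and 26 of the second had no read in epididymis. In the first set 45 genes reached 10 in fewer than 3 libraries outside the epididymis, so they entered the test only because they were high in epididymis, and their p-values are no independent support. They include 2 of the 10 called genes, Defb20 and Defb25, and 11 of the 40 with both separate adjusted p-values below 0.05. Leaving them aside, 8 and 29 remain. Among the 45, the other members of the lists used here are Itgax, Zbp1, Bst2, Oasl1, Spic, Bmp2 and Adam7. The shares 2.73% and 2.15% are what the counts of list members above and below all others are read against. Most genes beyond the others in these libraries thus did not pass the joint test, and they are given below as values.

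Apoe, the apolipoprotein that macrophages secrete to carry cholesterol out of the cell, was the gene with the lowest joint p. The gene lies at chr7:19696109-19699188, minus strand, of GRCm38. Apoe was at 102571, 102287 and 112096 normalised reads in the epididymis libraries, 6696, 2878 and 8182 in testis and 882, 895 and 633 in brain. The lowest epididymis library was more than 10 times the highest testis library, and Apoe took the most reads of any gene in epididymis replicate 3, 3.505% of them, without regard to gene length. The epididymis mean was 17.9 times the testis mean and 132 times the brain mean (log2 differences 4.29 from testis and 7.05 from brain, SE 0.29, joint adjusted p = 3.1e-06). Apoe was called under all 22 alternative settings.

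Abca1 was a further gene of cholesterol export above all others. Abca1, the transporter that loads cholesterol onto apolipoproteins, was at 1675, 1741 and 2002 in epididymis, 245, 515 and 661 in testis and 740.5, 551 and 546 in brain. The epididymis values of Abca1 lay above all others, at 3.81 and 2.95 times the other means (log2 differences 2.04 from testis and 1.57 from brain, SE 0.31), with a joint adjusted p of 0.085. A list of cholesterol efflux genes and targets of the oxysterol receptor LXR had 13 tested members. Of these, 1 was called higher (Apoe) and 0 were called lower. Apoe and Abca1 were the 2 members (15.4%) above all other libraries, against 2.73% of all tested genes. The list's median difference was 0.12 from testis and 0.31 from brain, against -0.10 and -0.13 over all tested genes. On the list of 16 tested genes of cholesterol synthesis and uptake, 0 were called in either direction. Of these, 1 (6.25%) lay below all other libraries, against 2.15% of all tested genes. Nsdhl, a sterol synthesis enzyme gene, was the member of that list below all others, at 10.9, 26.3 and 0 in epididymis, 146, 79.2 and 38.5 in testis and 47.4, 143 and 115 in brain (joint adjusted p = 1).

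Of 19 tested genes on a list known from lipid-associated macrophages, 1 was called higher, 0 lower, and 5 (26.3%) lay above all other libraries, against 2.73% of all tested genes. These were Apoe, Itgax, Clec7a, Axl and Fabp4, and 0 lay below. Axl and Fabp4 were chosen after their values were seen. Itgax, whose values stand above, had nearly no reads outside the epididymis (log2 differences 6.50 from testis and 7.99 from brain, SE 1.56) and did not pass the joint test (joint adjusted p = 0.26). It met the filter only through the epididymis libraries. Clec7a, the beta-glucan receptor Dectin-1, was at 269, 478 and 194 in epididymis, 130.4, 8.89 and 54.7 in testis and 0, 63.5 and 14.2 in brain. Axl, a receptor kinase that binds dying cells through Gas6, was at 683, 812 and 774 in epididymis, 311, 575 and 619.8 in testis and 0.911, 0 and 9.78 in brain, close to the testis levels and far from the brain levels (log2 differences 0.65 from testis and 8.11 from brain, SE 0.75). Fabp4, a fatty acid carrier, was at 26.4, 24.4 and 53.9 in epididymis, 1.04, 13.7 and 9.4 in testis and 4.55, 19 and 11.6 in brain, near the low end of the values tested. The list's medians were 0.65 from testis and 1.59 from brain. Its summed level, 353 to 377 reads per 10000 in epididymis against 23.6 to 39 in testis and 28.4 to 32.2 in brain, is in epididymis mostly Apoe.

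Ms4a7, a membrane-spanning gene of the CD20 family that marks many tissue macrophages, was at 4073, 3567 and 4329.7 in epididymis, 446, 178 and 570.2 in testis and 134, 138 and 106 in brain. The 3 epididymis libraries were at least several times every other library, and brain was lowest. The epididymis mean was 10 times the testis mean and 31.7 times the brain mean (log2 differences 3.48 from testis and 4.98 from brain, SE 0.36, joint adjusted p = 0.00037). Ms4a7 lies at chr19:11321039-11336146, minus strand. It was called in 21 of 22 alternatives and lost its call without the variance trend (adjusted p = 0.066, the highest of adjusted p-values that went down to 2.3e-19).

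Genes of sensing and signalling were also called. Gpr65, a proton-sensing receptor that responds to acid outside the cell, was at 3120.0, 2485 and 1894 in epididymis, 405, 578 and 488 in testis and 43.7, 15.6 and 38.2 in brain, or 5.1 and 76.9 times the other means (log2 differences 2.33 from testis and 6.32 from brain, SE 0.38, joint adjusted p = 0.024). The organs did not overlap, in the order epididymis, testis, brain. Trpm2, a calcium-permeable channel opened by oxidative stress, was at 2207, 2201 and 2166 in epididymis, 256, 135 and 223 in testis and 668, 682 and 591 in brain, or 10.7 and 3.39 times the other means (log2 differences 3.47 from testis and 1.76 from brain, SE 0.26, joint adjusted p = 0.0097). Its epididymis values were nearly equal and testis was the lowest organ.

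Tor3a, a torsin ATPase gene of the endoplasmic reticulum, was at 1466, 1448 and 1729 in epididymis, 556, 418 and 421 in testis and 222, 234 and 296 in brain (log2 differences 1.74 from testis and 2.63 from brain, SE 0.25, joint adjusted p = 0.0086). Fyb, the adaptor ADAP that links receptors to integrins, was at 3693, 3122 and 3342 in epididymis, 1516, 1044 and 1069 in testis and 1550.2, 1753 and 1107 in brain (log2 differences 1.50 from testis and 1.23 from brain, SE 0.22, joint adjusted p = 0.041). Both stood above each of the other libraries, Tor3a at 3.33 and 6.17 times the other means and Fyb at 2.8 and 2.3. The calls of Gpr65, Trpm2, Tor3a and Fyb were lost when any 1 epididymis library was left out and without the variance trend. Gpr65 also lost its call without any 1 testis library, and Tor3a without testis replicate 2. Fyb also lost its call without testis replicate 2 or 3, without brain replicate 1 or 3, in edgeR, with a pseudocount of 0.5 and with libraries rescaled to the same total. Gpr65, Trpm2 and Fyb share exon sequence with annotated genes that overlap them, on the opposite strand for Gpr65, on the same strand for Trpm2 and on both for Fyb. On GRCm38, Gpr65 lies at chr12:98268635-98276644, plus strand, Trpm2 at chr10:77907722-77970563, minus strand, Tor3a at chr1:156653617-156674356, minus strand and Fyb at chr15:6522853-6663313, plus strand. Reads in those stretches cannot be assigned to 1 gene. The library kit does not mark strand, and a mark would not separate genes on the same strand.

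Receptors through which macrophages read cytokines held 1 called gene. Il4ra, the shared chain of the receptors for interleukin 4 and interleukin 13, was at 2775, 3171 and 3812 in epididymis, 1294, 1522 and 1129 in testis and 1348, 1393 and 1545 in brain. The epididymis mean was 2.47 times the testis mean and 2.28 times the brain mean, and testis and brain overlapped each other (log2 differences 1.30 from testis and 1.18 from brain, SE 0.20, joint adjusted p = 0.024). Il4ra lies at chr7:125552120-125579474, plus strand, and an annotated gene on the opposite strand overlaps its exons. Il4ra lost its call without any 1 epididymis library, without testis replicate 2 or 3, without brain replicate 1 or 2, without the variance trend and in edgeR. Of 24 tested chemokine and cytokine receptor genes, 1 was called higher and 0 lower, while 5 (20.8%) lay above all other libraries and 1 (4.17%) below, against 2.73% and 2.15% of all tested genes. The share below is close to that background. The list's medians were 0.60 from testis and -0.40 from brain.

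The 4 other receptor genes above all others did not pass the joint test. Csf2rb, the common beta chain of the receptors for GM-CSF, interleukin 3 and interleukin 5, was at 1675, 1872 and 1602 in epididymis, 850.0, 1110.0 and 757 in testis and 1066, 1137 and 918 in brain (joint adjusted p = 0.58). Ccr1, a receptor for CCL3 and CCL5, was at 149, 65.7 and 106 in epididymis, 0, 2.42 and 40.2 in testis and 0, 13.4 and 17.8 in brain. Cxcr4, the receptor of CXCL12, was at 60.9, 38.5 and 65.8 in epididymis, 19.7, 31.5 and 23.9 in testis and 0, 0 and 9.78 in brain. Il10ra lay closer to the others, with a lowest epididymis value of 960.5 and a highest other value of 938.6, and Csf2rb and Il10ra were chosen after their values were seen. Csf2rb has a near copy, Csf2rb2, and is uncertain for that reason. The member below all others was Ccr2, the receptor that carries monocytes out of the marrow, at 14.5, 68.5 and 52.8 in epididymis, 1548, 1326 and 1154 in testis and 94.7, 99.2 and 77.3 in brain. Its difference from testis passed (-5.11, adjusted p = 5.3e-05) and that from brain did not (-1.23, adjusted p = 0.24). The markers of monocytes, summed over 10 genes, stood at 0.968 to 1.75 reads per 10000 in epididymis, 11.2 to 13.4 in testis and 0.728 to 1.31 in brain.

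Of the 6 tested genes on the list of alternative activation, the program that interleukin 4 is known for, Il4ra was the 1 called member. Over all tested genes 0.085% were called higher. Il4ra was also the 1 member above all others (16.7%), and Ccl24 was the 1 below (16.7%). Over all tested genes these shares were 2.73% and 2.15%. Ccl24, an eosinophil attractant of such macrophages, had no read in epididymis and was at 67.3, 4.04 and 101 in testis and 10.9, 82.5 and 30.2 in brain (joint adjusted p = 0.82). The list's medians were 0.42 and 1.00.

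Genes of the type I interferon response, which cells switch on through the interferon receptor and its transcription factors, included 1 called gene, Cxcl10. CXCL10 is a chemokine that draws T cells through CXCR3. Cxcl10 lies at chr5:92346638-92348889, minus strand, and its exons overlap Art3 on the opposite strand. Cxcl10 was at 935, 906 and 1229 in epididymis, 185, 287 and 359 in testis and 138, 132 and 146 in brain. The lowest epididymis value was more than double the highest testis value, and brain was lowest and narrow. The epididymis mean was 3.69 times the testis mean and 7.4 times the brain mean (log2 differences 1.92 from testis and 2.87 from brain, SE 0.32, joint adjusted p = 0.024). The call was lost without any 1 epididymis library, without testis replicate 1 or 2, and without the variance trend, with adjusted p-values from 1.8e-05 to 0.29 over the alternatives.

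The 250 bases before the start of Cxcl10 (chr5:92348890-92349139, minus strand) and of Bst2 (chr8:71537473-71537722, minus strand), a further interferon list member, are shown because both carry the interferon-stimulated response element. Of the 7 members of the interferon list above all others, 5 had a promoter in the table, and the element was found in these 2 and in none of the other 3. They are from RefSeq on GRCm38.p6, given 5′ to 3′ on the gene's strand. Capitals mark, in Cxcl10, first a match to that element (GAAA, any 2 bases, GAAA), next an NF-kappaB motif (GGGA, any base, TT, any base, CC), and last the AP-1 motif TGANTCA. In Bst2 they mark a pair of overlapping matches to the interferon element.
Cxcl10: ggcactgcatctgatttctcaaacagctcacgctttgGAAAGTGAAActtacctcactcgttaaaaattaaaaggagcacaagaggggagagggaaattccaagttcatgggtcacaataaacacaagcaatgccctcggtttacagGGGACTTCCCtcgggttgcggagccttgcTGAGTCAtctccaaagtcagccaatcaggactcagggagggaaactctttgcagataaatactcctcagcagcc
Bst2: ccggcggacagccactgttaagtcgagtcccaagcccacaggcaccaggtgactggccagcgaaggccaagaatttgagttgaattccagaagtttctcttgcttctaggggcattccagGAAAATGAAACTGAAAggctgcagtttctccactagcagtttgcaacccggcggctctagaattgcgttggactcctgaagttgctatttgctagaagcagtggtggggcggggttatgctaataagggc
Both strands were searched for these letters only, and wider forms of the motifs were neither searched nor marked. Over 9046 promoters of tested genes, the interferon element was found in 2.8%, the NF-kappaB motif in 1.11% and TGANTCA in 4.51%. A match is a description of these letters and not a measured site.

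Of 20 tested interferon genes, 7 (35%) had all 3 epididymis values above all 6 others and 0 lay below, against 2.73% and 2.15% of all tested genes. Of the 7, Zbp1, Bst2 and Oasl1 met the filter only through the epididymis libraries. The share was 45% without epididymis replicate 2, where it was 5.29% over all tested genes, and between 35% and 40% without any 1 of the other libraries, where it was between 3.17% and 5.5% over all genes. The list's median difference was 0.14 from testis and 3.56 from brain, and in the separate comparisons 1 member was higher than in testis (5%, against 1.9% of all tested genes) and 9 were higher than in brain (45%, against 2.99%). Zbp1, a sensor of Z-form nucleic acids, was at 86.4, 82.5 and 83 in epididymis, 9.32, 12.1 and 0 in testis and 0, 1.11 and 7.11 in brain. Bst2, which encodes tetherin, a protein that holds budding viruses at the cell surface, was at 48.2, 111 and 41 in epididymis, 30, 0.808 and 0 in testis and 0, 0 and 8.89 in brain. Epididymis values of Zbp1 were tight, while those of Bst2 spanned more than a factor of 2. Both were low and did not pass the joint test (joint adjusted p = 1).

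Oasl1, Oasl2, Ifit2 and Mx2, chosen after their values were seen, were the remaining members above all others. Oasl1, a translational brake on interferon production through IRF7, was at 191, 91.9 and 227 in epididymis, 23.8, 26.7 and 1.71 in testis and 0, 2.23 and 0 in brain. Oasl2 was at 282, 337 and 252 in epididymis, 129, 114 and 180.4 in testis and 77.4, 34.6 and 53.3 in brain. Ifit2, whose product binds viral RNA, was at 361, 382 and 333 in epididymis, 188, 187 and 93.2 in testis and 0, 37.9 and 5.33 in brain, with testis the nearer organ. Mx2, an antiviral GTPase gene, was at 193, 251 and 217 in epididymis, 79.7, 169.6 and 98.3 in testis and 35.5, 122 and 72.9 in brain, with its lowest epididymis library just above the highest testis library. The remaining members, among them Ifit3 and Mx1, did not lie beyond all other libraries. Summed over the list, the level was 14.2 to 15.9 reads per 10000 in epididymis, 8.11 to 8.49 in testis and 2.81 to 4.12 in brain, and the organs did not overlap.

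**Figure D2:**
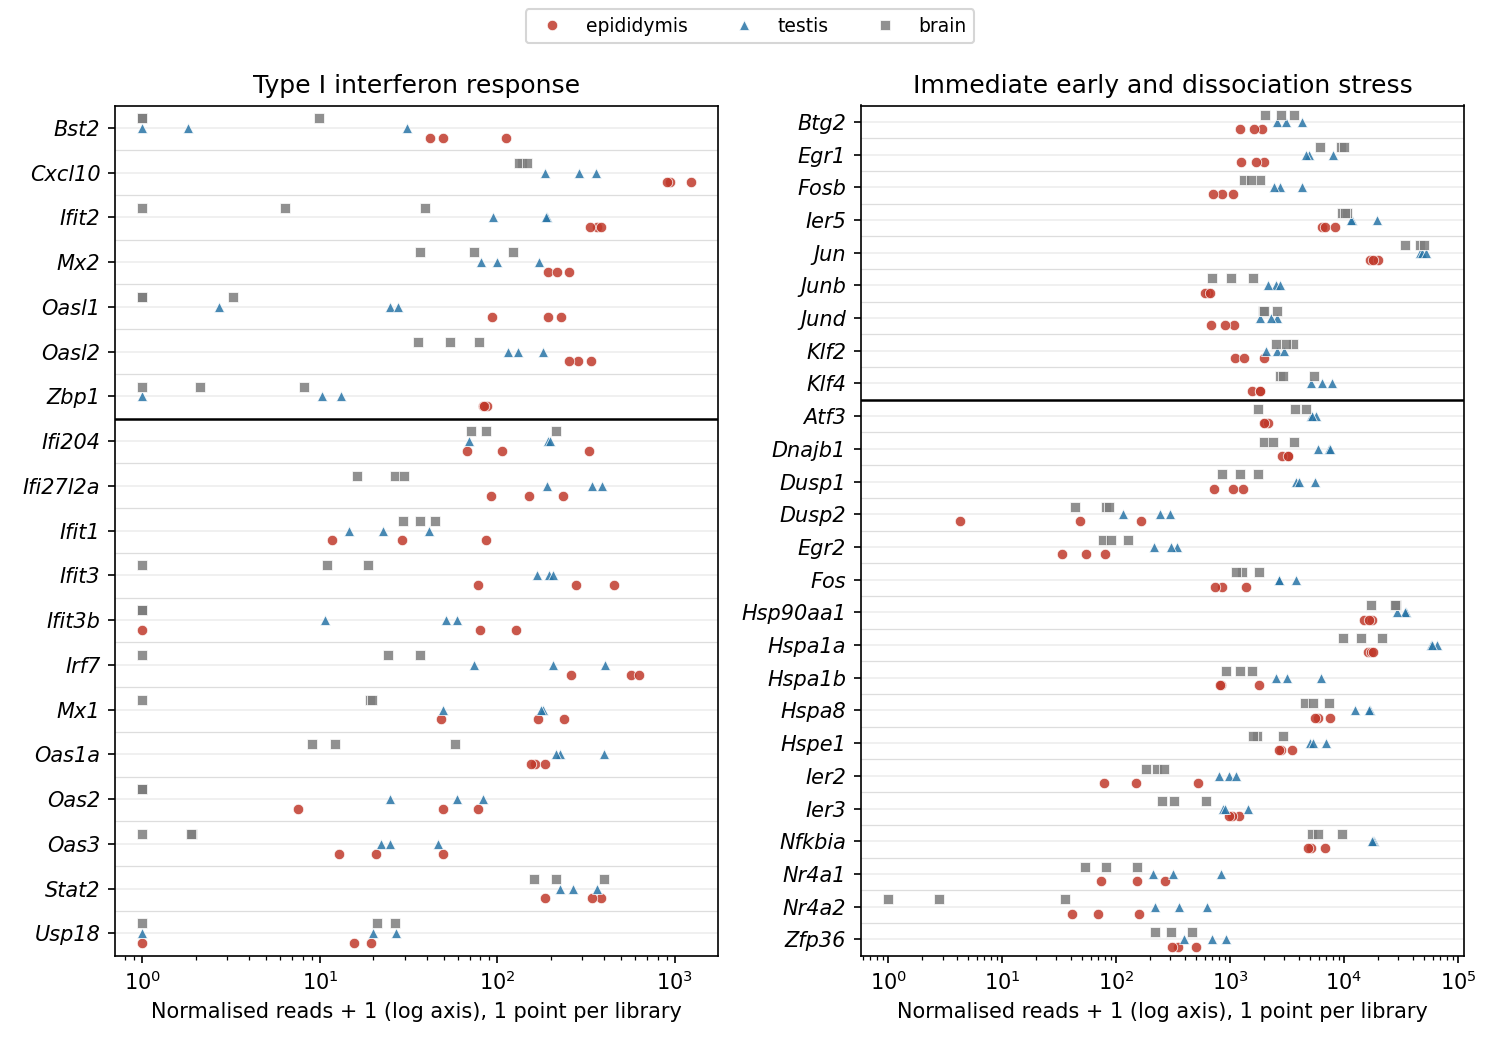
Normalised reads + 1 (horizontal log axis) of tested members of the interferon list (left, 19 of 20 genes) and of the immediate early and dissociation stress list (right, 26 of 27 genes), 1 point per library, with red circles for epididymis, blue triangles for testis and grey squares for brain. Above the black line stand the members whose 3 epididymis points lie beyond all 6 others, 7 genes on the left (above) and 9 on the right (below).

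Immediate early genes are transcribed within minutes of a stimulus and also during tissue dissociation. Of 27 tested genes on a list of immediate early and stress genes, 3 were called lower (Egr1, Jun and Jund), 0 were called higher, and 10 (37%) lay below all other libraries, against 2.15% of all tested genes. The list's median difference was -1.42 from testis and -0.53 from brain. In the separate comparisons 21 members were lower than in testis (2.49% of all tested genes), whereas 5 were lower (1.8% of all) and 1 higher than in brain. The share below all others was 33.3% under quantile normalisation and 40.7% with libraries rescaled to the same total, where it was 1.9% over all tested genes in both. It was between 37% and 48.1% without any 1 library, and over all genes it was then between 2.55% and 5.27%. The digestion was stated as 40 min for all 3 organs, and the part that tissue dissociation and handling have in these differences was not tested.

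Jun, a subunit of the AP-1 transcription factor, was at 16974, 20025 and 18039 in epididymis, 46678, 48551 and 52025 in testis and 34342, 46806 and 50772 in brain. The highest epididymis value was well under the lowest brain value, and testis and brain overlapped (log2 differences -1.42 from testis and -1.24 from brain, SE 0.18, joint adjusted p = 0.009). Jund, another AP-1 subunit gene, was at 680.0, 1084 and 894 in epididymis, 2564, 2282 and 1829 in testis and 1931, 2605 and 1969 in brain (log2 differences -1.34 from testis and -1.30 from brain, SE 0.23, joint adjusted p = 0.031). The means of the other organs were 2.68 and 2.4 times that of epididymis for Jun and 2.51 and 2.45 times for Jund. Egr1, a zinc finger factor induced by growth signals, was at 1989, 1698 and 1252 in epididymis, 4930.2, 4596 and 7933 in testis and 6212, 9462 and 10028 in brain (log2 differences -1.80 from testis and -2.37 from brain, SE 0.25, joint adjusted p = 0.007). Testis was 3.54 and brain 5.2 times the epididymis mean for Egr1. Jun lies at chr4:95049034-95052222, minus strand and Jund at chr8:70698949-70700616, plus strand, each with exons overlapped by an annotated gene on the opposite strand. Jun lost its call under quantile normalisation and Jund with libraries rescaled to the same total. Both lost it without any 1 epididymis library, Jun without brain replicate 2, and Jund without testis replicate 1 or 2 or any 1 brain library. Egr1 lost it without epididymis replicate 2 or 3, and all 3 genes lost it without the variance trend.

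The 250 bases before the start of Jun (chr4:95052223-95052472, minus strand, RefSeq on GRCm38.p6, 5′ to 3′) are shown because Jun is known to act on its own promoter. Capitals mark TGACATCA, the AP-1-like motif of that promoter.
Jun: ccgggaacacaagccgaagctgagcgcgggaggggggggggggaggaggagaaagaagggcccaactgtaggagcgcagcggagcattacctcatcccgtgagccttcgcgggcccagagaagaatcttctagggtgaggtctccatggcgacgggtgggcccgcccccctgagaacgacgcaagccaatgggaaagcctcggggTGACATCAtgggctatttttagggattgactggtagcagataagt
The letters TGACATCA were found on either strand in 1.45% of the 9046 promoters. They do not overlap a match to TGANTCA or to the cyclic AMP response element TGACGTCA.

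The 7 further members below all others did not pass the joint test. Klf4, a zinc finger factor of myeloid cells, was at 1564, 1842 and 1837 in epididymis, 7915, 6457 and 5146 in testis and 2739.7, 5478 and 2919.7 in brain (joint adjusted p = 0.27), and each separate comparison passed (adjusted p = 0.00053 and 0.027). Fosb, Junb, Ier5, Klf2 and Btg2 were also among them and were chosen after their values were seen. Junb was at 635, 607 and 673 in epididymis, 2539.6, 2146 and 2722 in testis and 699, 1027 and 1599 in brain, so that epididymis lay far under testis and next to brain. Klf2 was at 1112, 1969 and 1322 in epididymis, 2053, 2563 and 2989.6 in testis and 2525, 3589 and 3127 in brain, where brain was the farther organ. Fos itself, also chosen after its values were seen, overlapped brain, as did the heat shock genes of the list. The list's summed level was 291 to 306 reads per 10000 in epididymis, 697 to 719 in testis and 372 to 547 in brain.

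Sparc, a secreted collagen-binding protein that microglia are known to make, was at 74.5, 75 and 96 in epididymis, 354, 312 and 712 in testis and 10226, 11068 and 11251 in brain. Epididymis was the lowest organ and brain the highest by far, at 132 times the epididymis mean, while testis was at 5.61 times (log2 differences -2.38 from testis and -7.04 from brain, SE 0.29, joint adjusted p = 0.0024). Sparc lies at chr11:55394500-55423183, minus strand. Sparc was called in 21 of 22 alternatives and lost its call without the variance trend. It was the 1 called member of the 18 tested genes on the microglia identity list, where 0.051% of all tested genes were called lower. Sparc was also the 1 member below all others (5.56%), against 2.15% of all tested genes. In the separate comparisons 8 members were higher (1.9% of all tested genes) and 1 lower than in testis, 0 were higher and 11 lower than in brain (1.8% of all), and the medians were 2.12 and -2.27. Summed, the list stood at 28 to 35.9 reads per 10000 in epididymis, 9.46 to 18.8 in testis and 137 to 156 in brain.

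Adamts1 (chr16:85793827-85803113, minus strand), a metalloprotease that cleaves the proteoglycan versican, had no read in any epididymis library. Its values were 25.9, 217 and 205 in testis and 1326, 2222 and 1948 in brain. With a floor of 3 reads per library, Adamts1 was at least 51-fold lower in epididymis than in testis and at least 626-fold lower than in brain (joint adjusted p = 0.0053). The call was lost in 1 of 22 alternatives, without testis replicate 2 (adjusted p = 0.057, with 3.5e-08 the lowest of the alternatives). Tuba1a, an alpha tubulin gene, was at 67.3, 226 and 110.0 in epididymis, 459, 599 and 818 in testis and 1076, 1255 and 1047 in brain, and its epididymis values spread by more than a factor of 3 without reaching testis (log2 differences -2.35 from testis and -3.23 from brain, SE 0.38, joint adjusted p = 0.024). Tuba1a lies at chr15:98949837-98953703, minus strand, where an annotated gene on the same strand overlaps its exons. Alpha tubulin genes are near copies of each other, and how the counting shared reads among them is not given in the sources used here, so Tuba1a is uncertain. Its call was lost without epididymis replicate 1 or 3, without testis replicate 2 or 3 and without the variance trend.

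Of 17 tested matrix proteases and inhibitors, Adamts1 was called lower and 0 were called higher. On that list 3 (17.6%) lay above all others, against 2.73% of all tested genes. Mmp14, the membrane-bound protease that activates MMP2, was at 835, 487 and 747 in epididymis, 218, 56.5 and 250.5 in testis and 108, 118 and 253 in brain (joint adjusted p = 0.26), with both separate comparisons passed (adjusted p = 0.027 and 0.025). Serpinb8 was at 225, 254 and 292 in epididymis, 53.8, 158 and 174 in testis and 25.5, 2.23 and 0.889 in brain, close to testis at the upper end of that organ. The third was Adam17, the sheddase of TNF, chosen after its values were seen, at 2102, 3145 and 3099.6 in epididymis, 1446, 1592 and 1547 in testis and 1749, 1983 and 1964 in brain. The list's medians were 0.98 from testis and 0.20 from brain.

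Lysosomal genes included several above all other libraries and no call. Of 21 tested lysosomal enzymes and membrane proteins, 0 were called, 6 (28.6%) lay above all other libraries, against 2.73% of all tested genes, and 0 below. The medians were 1.07 from testis and 0.62 from brain. In the separate comparisons 7 members were higher than in testis (1.9% of all tested genes), and 4 were higher (2.99% of all) and 1 lower than in brain. With the libraries rescaled to the same total, 4 members (19%) lay above all others, against 3.11% of all genes. Without epididymis replicate 1 there were 9 (42.9%), against 5.41% of all genes. Lamp1, a glycoprotein that lines the lysosomal membrane, was at 2072, 1724 and 1741 in epididymis, 789.9, 693 and 804 in testis and 1156, 893 and 1162 in brain (joint adjusted p = 0.34). Man2b1, the lysosomal alpha-mannosidase, was at 3564, 3110.3 and 4188 in epididymis, 1820.1, 1932 and 1627 in testis and 2430.0, 1621 and 2294 in brain (joint adjusted p = 0.33). In these 2 genes each separate comparison passed, with epididymis at 2.42 and 1.73 times the other means for Lamp1 and 2.02 and 1.71 times for Man2b1. Ctss, a cysteine protease that trims the invariant chain of MHC class II, was at 15546, 10268 and 10493 in epididymis, 3634, 3723 and 7818 in testis and 8390.3, 7690.4 and 10069 in brain, with epididymis replicate 2 just above brain replicate 3. Ctsz and Psap, chosen after their values were seen, also lay above all others. Psap, the precursor of the saposins that help degrade sphingolipids, was at 29305, 28183 and 25668 in epididymis, 21337, 18827 and 18723 in testis and 14329, 13166 and 18956 in brain. Summed, the list stood at 221 to 241 reads per 10000 in epididymis, 107 to 119 in testis and 151 to 184 in brain.

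**Figure D3:**
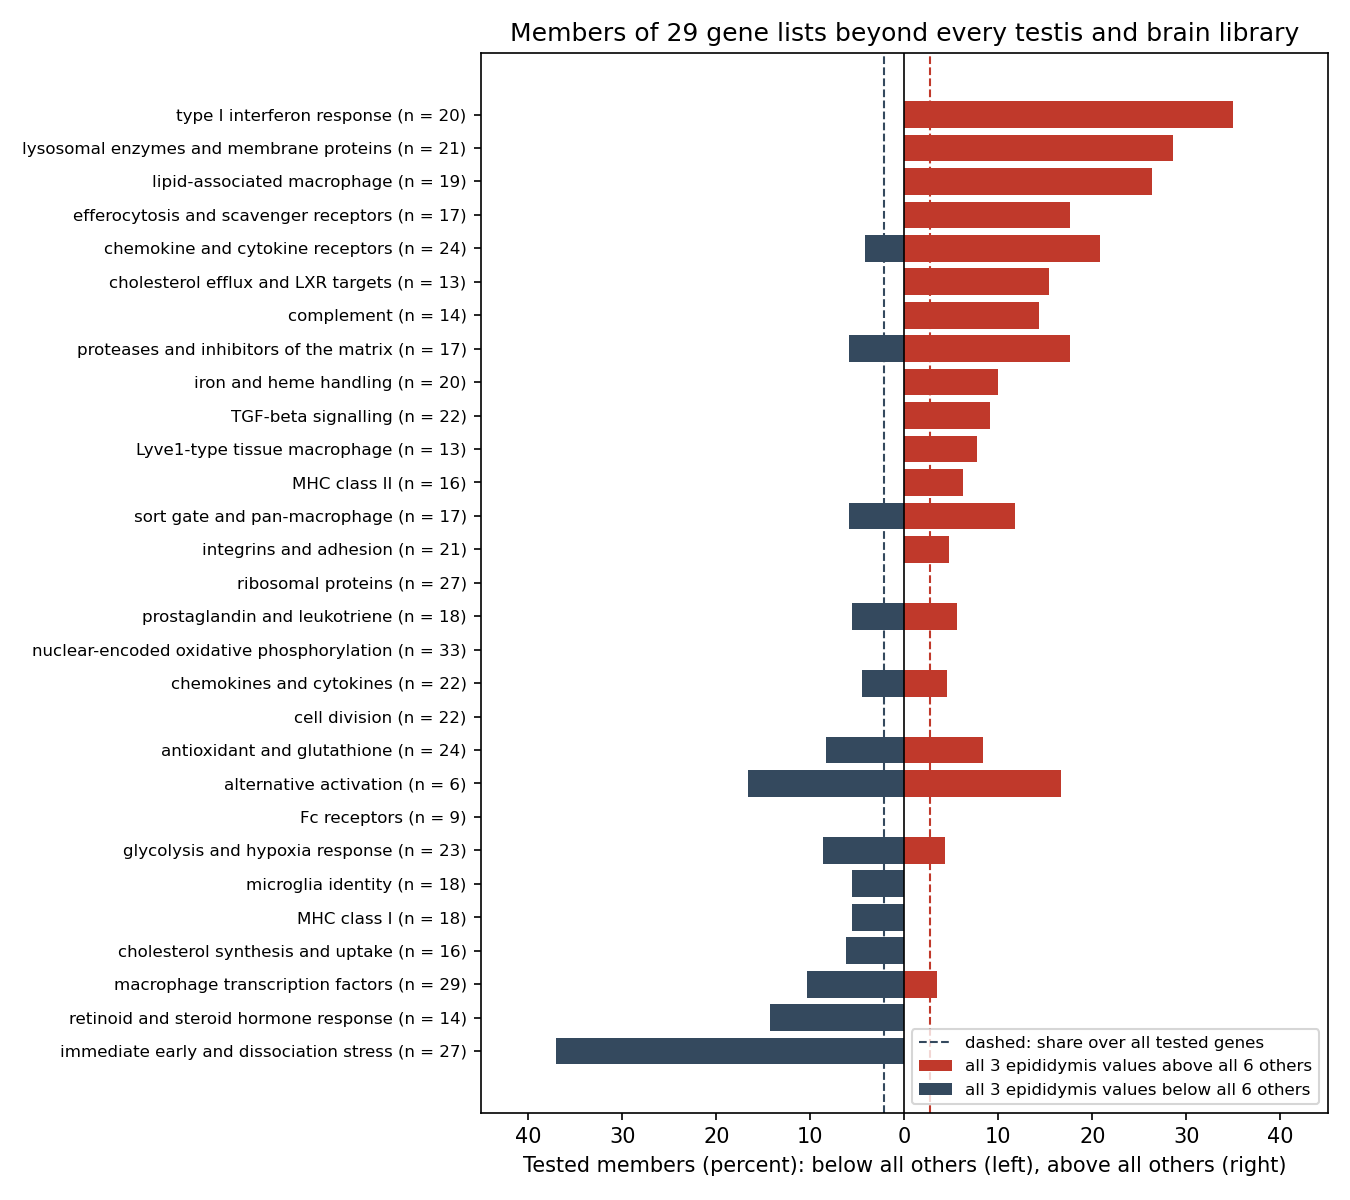
Share of the tested members of 29 gene lists (percent, number tested in brackets) whose 3 epididymis values lie above (red, to the right) or below (dark blue, to the left) all 6 other values, with dashed lines at the shares over all tested genes, 2.73% and 2.15%. The longest bars are the interferon list above (35%) and the immediate early list below (37%). Bars to the right also count genes that met the filter only through the epididymis libraries. These are Zbp1, Bst2 and Oasl1 on the interferon list, and Itgax, Spic and Bmp2 on other lists.

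C3ar1, the receptor of the complement fragment C3a, was at 1758, 1406 and 1293 in epididymis, 566, 577 and 763 in testis and 478, 642 and 465 in brain, with no overlap and both separate comparisons passed (adjusted p = 0.0084 and 0.0017, joint adjusted p = 0.079). C1qb, a chain of the first complement component, exceeded the others by little, at 2792, 2931 and 2939 in epididymis, 1961, 2436 and 2369.8 in testis and 2180.5, 2238 and 2643 in brain (joint adjusted p = 1). Of 14 tested complement genes 0 were called and these 2 (14.3%) lay above all others, against 2.73% of all tested genes. Among 17 tested efferocytosis and scavenger receptor genes, 0 were called. Axl, Stab1 and Cd300lf (17.6%) lay above all others, against 2.73% of all tested genes. With libraries rescaled to the same total, 2 members (11.8%) did so, against 3.11% of all tested genes. The medians of these receptor genes were 0.73 from testis and -0.17 from brain. Summed, they stood at 24.3 to 25.8 reads per 10000 in epididymis, 12.5 to 13 in testis and 34.1 to 43.6 in brain, where they were highest. Stab1, a scavenger receptor that takes up modified lipoproteins and dying cells, was at 1157, 1127 and 1413 in epididymis, 266, 396 and 527 in testis and 761, 687 and 613 in brain, where the difference from testis passed (adjusted p = 0.0018) and that from brain did not (adjusted p = 0.097). Cd300lf, an immune receptor that binds lipids, was at 207, 79.7 and 175 in epididymis, 6.21, 8.08 and 33.3 in testis and 77.4, 63.5 and 24.9 in brain, with its lowest epididymis value just above brain.

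Iron, redox and eicosanoid genes had no call. Cp, the copper ferroxidase ceruloplasmin that helps export iron, was at 1138, 1195 and 1813 in epididymis, 215, 33.1 and 123 in testis and 57.4, 37.9 and 2.67 in brain (log2 differences 3.80 from testis and 6.06 from brain, SE 0.88, joint adjusted p = 0.22). Epididymis exceeded every other library by several times, and both separate comparisons passed (adjusted p = 0.023 and 0.00071). Exons of Cp overlap Hps3 on the opposite strand, so reads there may belong to either gene. Spic, the transcription factor of iron-recycling macrophages, was at 43.6, 94.7 and 59.3 in epididymis, 0, 13.7 and 15.4 in testis and 0 in all 3 brain libraries. Of 20 tested iron and heme genes these 2 (10%) lay above all others, against 2.73% of all tested genes, and 0 below. Spic met the filter only through the epididymis libraries. Prdx5, a peroxidase of mitochondria and peroxisomes, was at 591, 729 and 688 in epididymis, 304, 232 and 278 in testis and 147, 184 and 143 in brain (joint adjusted p = 0.22). Nfe2l2, which encodes NRF2, the inducer of antioxidant genes, was at 1313, 1489 and 1842 in epididymis, 647, 943 and 832 in testis and 651, 749 and 591 in brain (joint adjusted p = 0.27). Of the 24 tested antioxidant and glutathione genes, Prdx5 and Nfe2l2 (8.33%) lay above all others. Gstp1 and Mgst3, glutathione transferase genes, lay below (8.33%). Over all tested genes the shares were 2.73% above and 2.15% below. Gstp1 was at 0, 0.938 and 10.8 in epididymis, 58, 158 and 57.3 in testis and 53.7, 29 and 71.1 in brain.

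Alox5, the enzyme that starts leukotriene synthesis, was nearly without reads in epididymis, at 0, 0 and 17.2 in epididymis, 272, 267 and 129 in testis and 193, 79.1 and 174 in brain. Both separate comparisons passed (adjusted p = 0.0051 and 0.0088), and the joint test did not (joint adjusted p = 0.091). Cysltr1, the receptor for the cysteinyl leukotrienes made downstream of that enzyme, lay above all others at 312, 247 and 249 in epididymis, 153, 169 and 76.9 in testis and 53.7, 110.4 and 97.8 in brain. These were the 2 members beyond the others among 18 tested prostaglandin and leukotriene genes. The shares were 5.56% above and 5.56% below, against 2.73% and 2.15% of all tested genes.

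Among 22 tested genes of TGF-beta signalling, Pmepa1 and Bmp2 (9.09%) lay above all others, against 2.73% of all tested genes. Pmepa1, a feedback inhibitor induced by TGF-beta, was at 6060.0, 5772 and 6361 in epididymis, 420.3, 349 and 565 in testis and 3477, 3265 and 2184 in brain, in the order epididymis, brain, testis without overlap (log2 differences 3.79 from testis and 1.06 from brain, SE 0.23, joint adjusted p = 0.14). Bmp2, a growth factor of the same superfamily, was at 82.7, 56.3 and 34.5 in epididymis, 4.14, 0 and 10.3 in testis and 0 in all 3 brain libraries, and it met the filter only through the epididymis libraries. Of 29 tested macrophage transcription factor genes, 1 (3.45%) lay above all others and 3 (10.3%) below, against 2.73% and 2.15% of all tested genes. The share above is close to that background. The member above is Spic, which met the filter only through the epididymis libraries, and Klf4 and Zeb1 are among those below. Zeb1, a zinc finger repressor gene, was at 70.9, 79.7 and 0 in epididymis, 143, 215 and 158 in testis and 198, 189.5 and 254 in brain (joint adjusted p = 1). Fkbp5 and Tsc22d3, known targets of the glucocorticoid receptor, lay below all others among 14 tested genes of retinoid and steroid hormone response. They are 14.3% of those genes, against 2.15% of all tested genes. Fkbp5 was at 30.9, 35.6 and 2.16 in epididymis, 141, 154 and 179 in testis and 131, 95.9 and 80.9 in brain, and Tsc22d3 at 101, 148 and 138 in epididymis, 365, 274 and 422 in testis and 253, 179 and 196 in brain (joint adjusted p = 0.93 and 1).

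Adgre1, which encodes F4/80, the antigen used in the sort, was at 684, 346 and 331 in epididymis, 100.4, 231 and 240.2 in testis and 88.3, 42.4 and 84.4 in brain. All 3 values lay above all others, but the difference from testis did not pass (1.27, adjusted p = 0.19), while that from brain did (2.63, adjusted p = 0.005). By their medians, MHC class II and ribosomal protein genes lay between the other organs. On the list of 16 tested MHC class II genes the medians were -0.87 from testis and 1.49 from brain. The 1 member above all others was Ctss (6.25%), against 2.73% of all tested genes. Of 27 tested ribosomal protein genes, 18 were lower than in testis (2.49% of all tested genes) and 8 higher than in brain (2.99% of all), with medians of -1.33 and 0.81. As deposited, the ribosomal protein, oxidative phosphorylation, cell division and Fc receptor lists had no member beyond the 6 others in either direction. Under quantile normalisation and with libraries rescaled to the same total, 1 Fc receptor gene lay above them. With some single libraries left out, each of these lists except the ribosomal protein list had 1 or 2 such members. Among the 29 lists, 9 held at least 1 called gene and 20 held none. The lists share genes, and Apoe, Cxcl10 and Il4ra each count in more than 1 of them.

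Defb25 and Defb20, genes of the epididymal epithelium, had reads almost only in epididymis. Both are among the 10 called genes, but they met the filter on low values only through the epididymis libraries, so their p-values are given as a description. Defb25, a beta-defensin of the duct (chr2:152622356-152623053, minus strand), was at 330.0, 289.8 and 497 in epididymis, 0, 2.42 and 0 in testis and 0.911, 0 and 0 in brain, with 1133 reads in epididymis, 3 in testis and 1 in brain. The ratio of read rates was 464 against testis (exact 95% interval 158 to 2254) and 1096 against brain (196.3 to 43340), where intervals cover counting error only (joint adjusted p = 0.035). Defb20, a further beta-defensin of that cluster (chr2:152477063-152479934, plus strand), was at 241, 136 and 274 and had no read in testis or brain, so it was at least 80.4-fold and 74.4-fold higher with a floor of 3 reads per library (joint adjusted p = 0.03). Both lost their call without any 1 testis or brain library, and without the filter on low values (adjusted p = 0.072 for Defb25 and 0.081 for Defb20). Defb25 lost it also with a pseudocount of 0.5. Beta-defensin genes resemble each other in sequence.

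Of 52 listed epithelial genes, 33 were in the table, 10 were tested, 2 were called higher and 4 lay above all others. Of these 4, Defb20, Defb25 and Adam7 met the filter only through the epididymis libraries, so the counts are a description. Summed over the 33, epididymis libraries held 4.05 to 4.40 reads per 10000, testis 0.976 to 1.60 and brain 0.184 to 0.242. Adam7, a membrane protein of the duct that is passed to sperm, was at 176, 294 and 112 in epididymis, 0, 16.2 and 0 in testis and 0 in all 3 brain libraries (joint adjusted p = 0.29). Cdh1, the adhesion protein E-cadherin of epithelia, was at 65.5, 52.5 and 59.3 in epididymis, 0, 0 and 19.7 in testis and 0, 23.4 and 13.3 in brain. Without a read in epididymis were Crisp4, Krt8, Defb19, Defb45 and Ly6g5b, and Lcn5, an abundant secreted lipocalin of the duct, had 0, 18.8 and 0. Lcn5 and the genes without a read were chosen after their values were seen. These libraries are bulk RNA, in which fewer cells of a type and less RNA per cell cannot be told apart. The part that RNA of epithelial cells has in the other results was not tested.

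Summed markers of other cell types also differed with organ. Over 17 spermatid and sperm genes, epididymis libraries held 3.00 to 4.24 reads per 10000, testis 4.59 to 7.63 and brain 1.21 to 1.36, with 0 of 13 tested members called. Most of the brain sum is the member Odf2, chosen after its values were seen. Odf2 had 1040 reads in epididymis, 1041 in testis and 993 in brain. Leydig cell genes stood at 0.091 to 0.643 in epididymis against 4.04 to 10.5 in testis, and T and NK cell genes at 0.640 to 0.908 against 2.69 to 3.33. Smooth muscle genes reached at most 0.352 in epididymis, fibroblast genes 0.412 and endothelial genes 0.739. The part of any of these in the results was not tested.

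**Figure D4:**
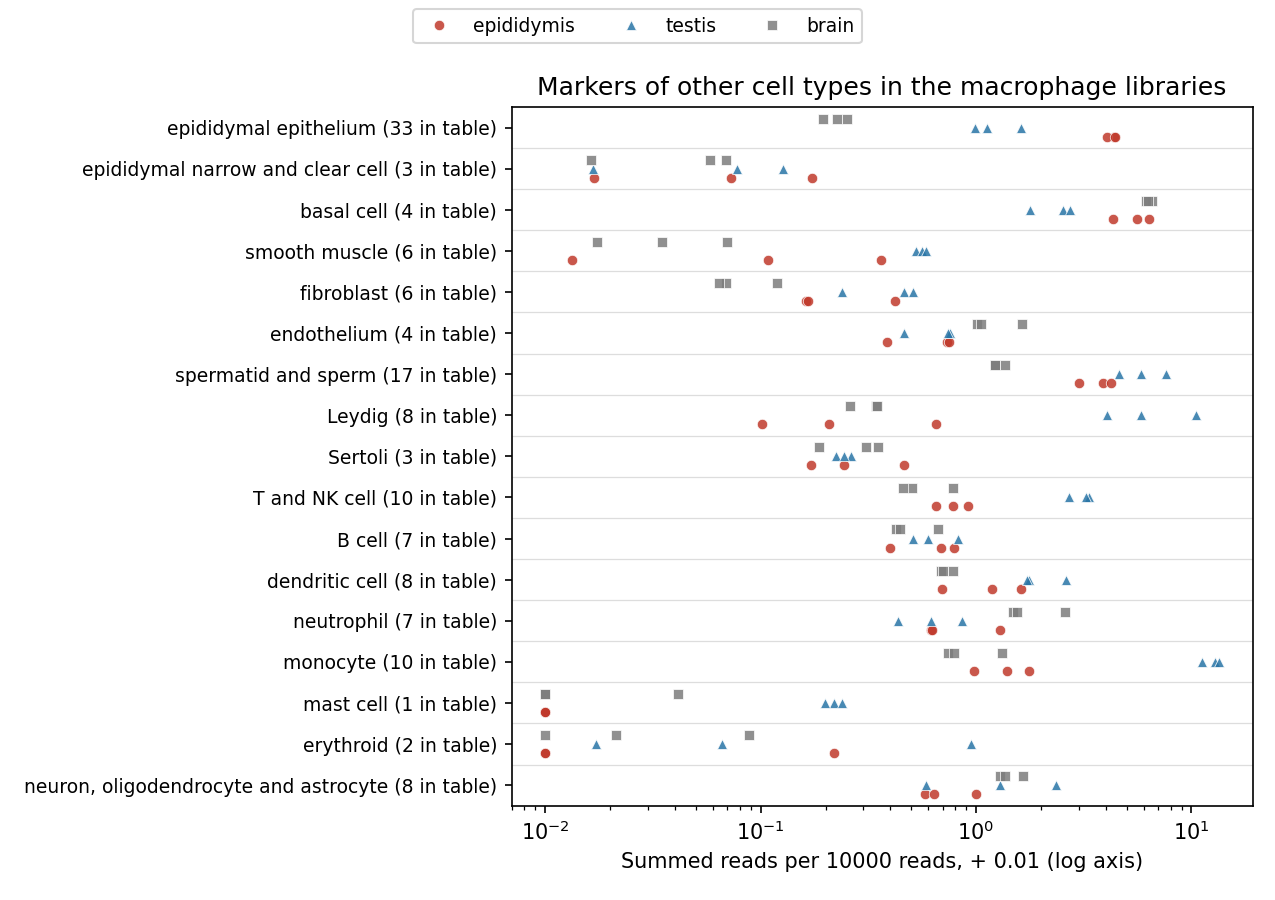
Summed reads per 10000 reads + 0.01 (horizontal log axis) over the marker genes of 17 other cell types, 1 point per library, with the number of genes in the table in brackets, red circles for epididymis, blue triangles for testis and grey squares for brain. Epididymal epithelium is the row in which the epididymis points, at 4.05 to 4.40, lie above all others, and Leydig and monocyte genes are highest in testis.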

How the data were processed

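Macrophage RNA of 9 libraries was compared, 3 from epididymis, 3 from testis and 3 from brain. The values the authors deposited are a signal, namely each gene's reads over 1 scaling factor per library. CASAVA 1.8, Bowtie2 2.2.1, Partek 6.6, DESeq2 and the mm10 genome are named in the submitters' processing notes. For the counting rule and the annotation, the sources used here say nothing. All values (100%) came out as whole multiples of the library's step within 1e-06 reads, so reads were recovered for count tests. Replicates were numbered in accession order, and the labels share no number across organs.

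Of 15434 genes, 11766 that reached 10 in 3 or more libraries were fitted as log2(value + 1) with limma 3.58.1 (R 4.3.3), with 1 mean per organ and a trend of the variance on the mean (residual degrees of freedom 6, prior 9.08). The joint p and call are defined in the text. The fold is on the scale of means, and the log2 difference understates the change of low genes. Alternatives included edgeR 4.0.16 and DESeq2 1.42.0 on the recovered reads. Variation between replicates was large, with a common biological coefficient of variation of 0.913 in edgeR. The procedure was tested on simulated data in which genes either did not differ or were shifted in epididymis alone. Genes in which epididymis differs from only 1 of the other organs were not simulated.

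The members and gene lists were chosen with earlier results of these data known. By rule, the named genes were up to 20 called genes per direction with the largest smaller difference and a highest organ mean of at least 110.5 (the median), up to 3 called members of each list, up to 2 uncalled members beyond all other libraries, and 5 sort markers. A few list members are counted but not reported here by name. A gene whose values are printed outside this rule is named as chosen after its values were seen. Genes given by name without values may also lie outside it. Coordinates are from GENCODE M21 (GRCm38, which mm10 denotes). Among uncalled genes, exons of Cp, Stab1, Lamp1, Prdx5 and Zeb1 are overlapped by an annotated gene on the opposite strand. Exons of Itgam and Insl3 are overlapped on the same strand. Reads in these stretches may belong to either gene.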

Additional observations from a re-analysis of the deposited data

How the results depend on the processing

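The 10 higher and 6 lower calls became 18 higher genes with a pseudocount of 10, 29 higher and 29 lower in DESeq2, 90 higher and 48 lower in a contrast with the average of the other organs, and 40 higher and 21 lower with both separate adjusted p-values (chosen after seeing the data). All 16 genes were among the calls in each of these 4 settings. Without 1 library there were 2 to 8 higher and 3 to 6 lower genes, of which 2 higher genes remained without any 1 epididymis library, 3 without testis replicate 2, 5 without testis replicate 3 and 6 without brain replicate 1, while 3 lower genes were called without epididymis replicate 2 and 3 without testis replicate 2. Without epididymis replicate 3 and testis replicate 1 together, a setting chosen after seeing the data, 2 higher and 4 lower genes were called. These fits have fewer samples. In edgeR 8 and 8 genes were called, with all 6 lower genes and 8 of the 10 higher genes among them. Without the variance trend 9 and 9 were called, of which 3 and 1 were shared, and the cause was not tested. Defb20 and Defb25 fall under the filter when an epididymis library is left out. Among named genes, the smaller difference of Ptprc, uncalled, ranged from -0.078 without testis replicate 3 to 0.162 without testis replicate 2, and was -0.067 without epididymis replicate 3 and -0.010 without epididymis replicate 3 and testis replicate 1. At this depth, with 3 libraries per organ, a gene outside the 16 calls is not shown to be equal between organs. No paired analysis was possible because the labels share no replicate numbers across organs.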

Other observations

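A few genes outside the lists, chosen after their values were seen, lay beyond all 6 other libraries. Cpd, a carboxypeptidase of the secretory pathway, was at 1204, 1093 and 1090.0 in epididymis, 502, 423 and 292 in testis and 108, 152 and 153 in brain (joint adjusted p = 0.079). Vnn3 and Lypd8 had no read outside the epididymis and met the filter on low values only through it, so no p-value is given for them. Vnn3, a member of the vanin family of pantetheinases, was at 75.5, 116 and 48.5 in epididymis, 0 in all 3 testis libraries and 0 in all 3 brain libraries. Lypd8, a Ly6 family protein known from the colon epithelium, was at 104, 79.7 and 71.2 in epididymis, 0 in all 3 testis libraries and 0 in all 3 brain libraries. On the low side, St3gal5, the synthase of the ganglioside GM3, was at 0, 0.938 and 2.16 in epididymis, 42.4, 36.4 and 93.2 in testis and 384, 322 and 362 in brain (joint adjusted p = 0.15). Zfp36l1, an RNA-binding protein that shortens the life of messages with AU-rich elements, was at 382, 201 and 350.4 in epididymis, 1398, 996 and 1231 in testis and 859.8, 571 and 854 in brain (joint adjusted p = 0.17). Pip4k2a, a phosphoinositide kinase gene, was at 245, 251 and 336 in epididymis, 671, 568 and 651 in testis and 539, 694 and 666 in brain (joint adjusted p = 0.16).

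The beta-defensin genes of the epithelial list differed in where they had reads. Defb20 and Defb25 had reads almost only in epididymis, whereas Defb19, chosen after its values were seen, was at 0 in all 3 epididymis libraries, 391, 105 and 199 in testis and 0 in all 3 brain libraries. Defb21, Defb28, Defb37, Defb38 and Defb48, which were not tested, had reads in epididymis alone but not in all 3 of its libraries. Defb45 had reads in testis alone, Defb30 in epididymis and brain, and Defb42 in all 3 organs. Insl3, the hormone gene of Leydig cells, had no read in epididymis and was at 906, 507 and 1939.8 in testis and 8.2, 2.23 and 13.3 in brain.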
